A study of Mus musculus with 12 samples.

Results

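Genes that mark tumour macrophages or their state of activation, 10 of the 45777 counted, were followed through 12 mouse tumour libraries. They were taken by symbol: Adgre1, Csf1r, Cd68, C1qa, Mrc1, Arg1, Nos2, Spp1, Siglec1 and Ms4a6c. Each tumour grew under the skin of an 8-week-old male 129S2/SvPasCrl mouse from injected cells of 393P, a line of mouse lung cancer. In the cells of 1 genotype MAVS, an adaptor on mitochondria through which RNA sensors of the cytosol signal, was knocked out, and in those of the other it had been put back. The mice then received BAY-1217389, an inhibitor of the mitotic checkpoint kinase MPS1, at 5 mg/kg 2 times daily for 2 days, or the control treatment, and tumours were collected on the following day. This gave 4 groups of 3 libraries, called here reconstituted inhibitor, reconstituted control, knockout inhibitor and knockout control tumours. The sample titles give the knockout cells the name Luc and the control treatment the name Veh, and the sources used here do not say whether each cell population is 1 clone. Genotype belongs to the injected cells, so that any other difference between the 2 cell populations cannot be told apart from MAVS. The study asked which changes in tumour expression after a pulse of MPS1 inhibition depend on MAVS.

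Macrophages in such a tumour come from the host, as monocytes that enter from blood or as resident cells, and they survive on signals through the CSF1 receptor. They are known for changing state with their surroundings. Interferon-gamma and bacterial products raise Nos2 and other genes of classical activation, interleukin-4 raises Arg1 and Mrc1 in the state called alternative activation, and type I interferon raises Siglec1. Several of these genes are not exclusive to macrophages. Spp1 is also made by epithelial tumour cells, Arg1 and Nos2 by other myeloid cells, and a whole tumour piece does not show which cell a read came from.

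Siglec1 and Ms4a6c were the 2 members of 10 that passed the test, in a comparison where 1.56% of all genes tested did. Averaged over both treatments, Siglec1 was higher in reconstituted than in knockout tumours by 0.90 ± 0.15 on the log2 scale (SE, adjusted p = 0.0166), and Ms4a6c was higher by 0.51 ± 0.11 (adjusted p = 0.0421). Differences were fitted with edgeR's quasi-likelihood test over the 17885 genes with enough counts, among them all 10 members, and p-values were adjusted over those genes. The pan-macrophage genes Adgre1, Csf1r and Cd68 stayed within 0.12 log2 units of 0 in that comparison. Nos2 and C1qa had their largest difference between 2 groups elsewhere, between reconstituted inhibitor and reconstituted control tumours, and Arg1 had its own between reconstituted and knockout control tumours. None of those passed. In bulk tissue, fewer macrophages and less RNA per macrophage cannot be told apart.

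The libraries held 52983715 to 69108411 counts, and levels are given in CPM, the usual scaling of counts by library size. Mavs itself, the check of the genotype labels, had 50.06, 53.84 and 62.78 CPM in reconstituted inhibitor tumours and 85.05, 68.9 and 59.09 CPM in reconstituted control tumours. It had 43.47, 39.39 and 40.99 CPM in knockout inhibitor tumours and 40.51, 42.5 and 45.68 CPM in knockout control tumours. All 6 reconstituted libraries therefore lay above all 6 knockout libraries. All 25 genes of a macrophage and monocyte list were detected, with summed levels of 3209 to 6133 CPM, and so were the epithelial markers of the cancer cells. Reconstituted inhibitor replicate 1 stood apart from the rest, at 55.8 on a first principal component (41.2% of the variance) where the other 11 libraries ran from -32.0 to 14.5. It also had the highest summed skeletal muscle markers, 2229 CPM against 1.31 to 653 CPM in reconstituted control, knockout inhibitor and knockout control tumours, and the lowest fibroblast and pericyte markers, 2884 CPM. The part of that library's makeup in the results was not tested, and values without it are given for some of the results.

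Compared per kilobase of exon, the members covered a wide span of levels. Spp1, which encodes the secreted matrix protein osteopontin, averaged 5289 CPM per kilobase over the 12 libraries and made up 87.2% of the summed level of the 10 genes. It alone took 0.563 to 1.08% of all counts of a library and ranked between the highest and the 5th highest gene. C1qa came next with 379 CPM per kilobase, and Arg1 had 140. Mrc1, Cd68, Ms4a6c and Csf1r lay between 70.5 and 37.2, Adgre1 and Nos2 at 18.9 and 16.8, and Siglec1 was lowest with 6.83 CPM per kilobase.

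Their stability over the libraries differed as much. The highest library exceeded the lowest by 1.38-fold for Csf1r, 1.57-fold for Cd68, 1.74-fold for Spp1 and 1.79-fold for Adgre1. Ms4a6c spanned 2.02-fold, C1qa 2.47-fold, Mrc1 2.89-fold and Siglec1 3.10-fold. The enzymes of arginine use spanned most, 6.97-fold for Arg1 and 7.12-fold for Nos2.

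**Figure D1:**
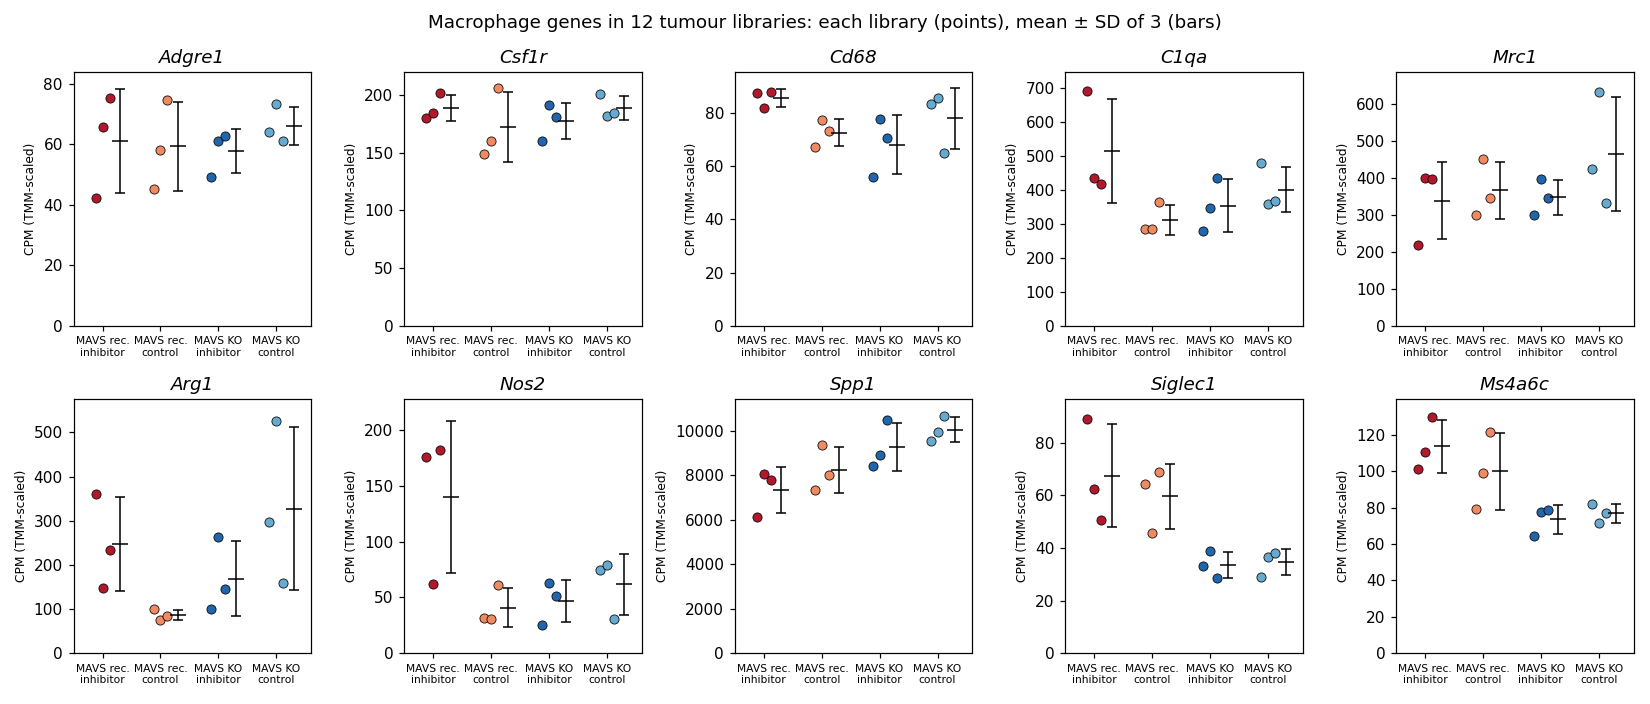
Level of each of the 10 genes in CPM (y axis, starting at 0) in the 4 groups (x axis, MAVS rec. for reconstituted and MAVS KO for knockout); points are libraries and bars the mean ± SD of 3. Siglec1 has 45.7 CPM or more in all 6 reconstituted libraries and 38.7 CPM or less in all 6 knockout libraries, and Nos2 reaches 176 and 182 CPM in 2 of 3 reconstituted inhibitor libraries.

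The pan-macrophage genes showed no difference that passed the test in any comparison. Adgre1, which encodes the surface receptor F4/80 by which mouse macrophages are commonly recognised, averaged 61.1 ± 17.1 CPM in reconstituted inhibitor, 59.3 ± 14.7 in reconstituted control, 57.8 ± 7.36 in knockout inhibitor and 66.1 ± 6.35 CPM in knockout control tumours (SD, n = 3 each). Csf1r, the receptor for the macrophage growth factors CSF1 and IL-34, averaged 189 ± 11.6 CPM in reconstituted inhibitor, 172 ± 30.3 in reconstituted control, 178 ± 15.8 in knockout inhibitor and 189 ± 10.2 CPM in knockout control tumours. The groups overlapped for both genes in all 4 comparisons of 2 groups. The interval of the MAVS difference averaged over treatments was -0.37 to 0.30 log2 units for Adgre1 and -0.21 to 0.16 for Csf1r (95%). Part of the Csf1r exons overlaps Hmgxb3 on the opposite strand, and the labels leave the use of strand in counting unstated.

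Cd68, a glycoprotein of lysosomes that is abundant in phagocytes, had 87.4, 81.9 and 87.8 CPM in reconstituted inhibitor tumours and 67.1, 77.5 and 73.3 CPM in reconstituted control tumours. Knockout inhibitor tumours had 55.9, 77.6 and 70.7 CPM, and knockout control tumours 83.3, 85.6 and 65.0 CPM. The reconstituted inhibitor libraries were above those of reconstituted control and of knockout inhibitor tumours without overlap. The differences were 0.24 ± 0.13 and 0.33 ± 0.13 log2 units (SE) with adjusted p of 0.224 and 0.202, so neither passed.

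C1qa, a chain of the complement component C1q that tissue macrophages secrete, had 689, 433 and 416 CPM in reconstituted inhibitor tumours, against 285, 285 and 363 CPM in reconstituted control tumours. Knockout inhibitor tumours had 279, 345 and 435 CPM, against 477, 358 and 366 CPM in knockout control tumours. All 3 reconstituted inhibitor libraries were above all 3 reconstituted control libraries, whereas the knockout groups overlapped. The inhibitor difference was 0.72 ± 0.22 log2 units in reconstituted tumours (adjusted p = 0.0742) and -0.18 ± 0.22 in knockout tumours (adjusted p = 1). The interaction, the test of whether these differ, gave 0.90 ± 0.31 with an adjusted p of 0.145, and 0.63 to 1.08 with 1 library left out. The inhibitor difference of C1qa in reconstituted tumours depended on single libraries of the reconstituted inhibitor group. It was 0.45 (adjusted p = 0.271) without replicate 1 and 0.85 (adjusted p = 0.0187) without replicate 3. In the fit without replicate 3, 5683 of all 17885 genes passed in that comparison. C1qb, another chain of C1q, kept the most constant ratio to C1qa of 12314 genes compared, with an SD of the log2 ratio over the 12 libraries of 0.0525.

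Mrc1 encodes the mannose receptor CD206, an endocytic lectin of alternatively activated and many resident macrophages. It had 219, 399 and 398 CPM in reconstituted inhibitor tumours, 300, 452 and 346 CPM in reconstituted control tumours, 299, 396 and 346 CPM in knockout inhibitor tumours and 426, 634 and 333 CPM in knockout control tumours. The groups overlapped in every comparison, and the extremes were single libraries, reconstituted inhibitor replicate 1 at the low end and knockout control replicate 2 at the high end. The MAVS difference averaged over treatments was -0.19 with a 95% interval of -0.61 to 0.23, and the inhibitor difference averaged over genotypes was -0.27 with an interval of -0.69 to 0.16. Both values of Mrc1 depended on those libraries: they were -0.07 and -0.15 without reconstituted inhibitor replicate 1, and -0.04 and -0.12 without knockout control replicate 2.

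Siglec1 (CD169, sialoadhesin) is a lectin of macrophages that binds sialic acid, and it is located at chr2:131067801-131086778 on the minus strand (GRCm38). It had 89.05, 62.5 and 50.84 CPM in reconstituted inhibitor tumours, against 32.99, 38.73 and 28.7 CPM in knockout inhibitor tumours. It had 64.25, 45.73 and 68.9 CPM in reconstituted control tumours, against 29.12, 36.66 and 38.28 CPM in knockout control tumours. Every reconstituted library was thus above every knockout library, with either treatment. The difference was 1.01 ± 0.22 log2 units under the inhibitor (SE, adjusted p = 0.0649) and 0.78 ± 0.22 in control tumours (adjusted p = 0.162), and it passed when both were averaged. That is 2.02-fold, 1.72-fold and, averaged, 1.86-fold. With 1 library left out, the difference under the inhibitor ran from 0.76 to 1.17. The inhibitor difference of Siglec1 did not pass, at 0.18 with a 95% interval of -0.29 to 0.65 in reconstituted tumours (-0.07 without replicate 1 of the inhibitor group) and -0.05 with an interval of -0.52 to 0.42 in knockout tumours. The averaged MAVS difference stayed between 0.77 and 0.98 when each library in turn was left out. It no longer passed without knockout inhibitor replicate 1 (adjusted p = 0.0529) or replicate 3 (adjusted p = 0.0508), and passed in the other 10 fits. Without reconstituted inhibitor replicate 1, which has the highest Siglec1 level, it was 0.77 (adjusted p = 0.0189).

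Ms4a6c, a membrane protein of the MS4A family found in mouse monocytes and macrophages, is located at chr19:11469353-11487182 on the plus strand (GRCm38). It had 101, 111 and 130 CPM in reconstituted inhibitor tumours, against 64.4, 77.5 and 78.7 CPM in knockout inhibitor tumours. Reconstituted control tumours had 79.5, 99.0 and 122 CPM, against 81.9, 71.6 and 77.3 CPM in knockout control tumours. The genotypes did not overlap under the inhibitor, while in control tumours the lowest reconstituted library fell inside the knockout range. The difference was 0.63 ± 0.15 log2 units under the inhibitor (adjusted p = 0.0765) and 0.38 ± 0.15 in control tumours (adjusted p = 0.220). The averaged difference of 0.51, or 1.42-fold, depended on single libraries for its call: it ranged from 0.42 to 0.57 with 1 library left out, and passed in 2 of those 12 fits, the ones without reconstituted control replicate 1 and without reconstituted inhibitor replicate 1. Adjusted p in the other 10 ran up to 0.115.

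Ms4a6c has close relatives beside it on chromosome 19, and this bears on its counts. Its exons also overlap BE692007 on the opposite strand by 101 bases, and the labels leave the use of strand in counting unstated. Of the 50-base words in the Ms4a6c transcripts, 10.5% also occur in another gene, mainly Ms4a6b, so that part of its reads could be shared between both genes. The promoter windows of the pair, 250 bases before to 50 bases after the transcript start in the RefSeq table for GRCm38.p6, show the same kinship and are printed with their longest common run of 48 bases in capitals. They are chr19:11469118-11469417 for Ms4a6c and chr19:11518309-11518608 for Ms4a6b, both on the plus strand. Of all 32851 windows in the table, 2 hold that run, those of these 2 genes.
Ms4a6c: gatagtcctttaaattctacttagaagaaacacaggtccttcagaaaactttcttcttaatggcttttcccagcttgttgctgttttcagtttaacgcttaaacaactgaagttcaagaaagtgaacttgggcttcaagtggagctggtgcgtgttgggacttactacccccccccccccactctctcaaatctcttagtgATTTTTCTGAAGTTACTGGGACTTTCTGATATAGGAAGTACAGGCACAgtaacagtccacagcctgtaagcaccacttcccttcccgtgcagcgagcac
Ms4a6b: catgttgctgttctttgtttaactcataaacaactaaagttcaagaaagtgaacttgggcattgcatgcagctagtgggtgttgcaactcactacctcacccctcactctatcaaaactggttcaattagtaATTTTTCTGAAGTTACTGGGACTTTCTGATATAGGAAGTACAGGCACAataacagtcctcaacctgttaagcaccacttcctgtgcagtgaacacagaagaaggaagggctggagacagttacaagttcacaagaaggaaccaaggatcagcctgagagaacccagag

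Ms4a6b, named here for that shared sequence, had 46.4, 48.5 and 64.5 CPM in reconstituted inhibitor tumours, against 30.7, 31.4 and 39.1 CPM in knockout inhibitor tumours, without overlap. In control tumours it had 32.7, 38.6 and 58.5 CPM in reconstituted libraries, against 36.6, 25.4 and 30.6 CPM in knockout libraries, with overlap. Its averaged MAVS difference of 0.57 ± 0.15 did not pass (adjusted p = 0.103). Of the 10 other Ms4a genes tested, Ms4a4c passed in that comparison, at 1.95 ± 0.36 (adjusted p = 0.0242). Ms4a4c had 41.0, 47.5 and 44.0 CPM in reconstituted inhibitor tumours, against 6.41, 12.9 and 9.90 CPM in knockout inhibitor tumours, and 8.19% of its transcript words occur in relatives. It passed in 8 of the 12 fits with 1 library left out.

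The promoters of 4 members are in the RefSeq table: Mrc1, Spp1, Cd68 and Ms4a6c. They were searched on both strands for the core of the interferon-stimulated response element, GAAANNGAAA, which 3.44% of all windows hold. The windows of Ms4a6c, Mrc1 and Cd68 did not hold it. Spp1 has 2 windows in the table, and the one at chr5:104435942-104436241 did not hold it either. The Spp1 window at chr5:104434861-104435160 on the plus strand held this core once, on the minus strand, 157 bases before the start, and is printed with the match in capitals as the only one among the members.
Spp1: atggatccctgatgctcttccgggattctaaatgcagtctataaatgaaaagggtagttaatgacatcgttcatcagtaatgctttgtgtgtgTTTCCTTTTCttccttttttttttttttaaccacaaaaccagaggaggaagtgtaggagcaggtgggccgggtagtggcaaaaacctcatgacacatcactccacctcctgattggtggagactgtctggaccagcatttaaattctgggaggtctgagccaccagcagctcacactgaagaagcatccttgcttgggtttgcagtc

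Among 20 interferon-stimulated genes, 12 have a window in the table, and 8 of these held the same core. A match describes letters in a window and is no sign of binding.

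Arg1 encodes arginase 1, which splits arginine into ornithine and urea and is the usual marker of alternative activation in mouse. It had 360, 147 and 233 CPM in reconstituted inhibitor tumours, against 99.2, 75.4 and 84.1 CPM in reconstituted control tumours. Knockout inhibitor tumours had 99.2, 262 and 145 CPM, against 298, 525 and 159 CPM in knockout control tumours. Reconstituted control tumours were lowest, with all 3 libraries below all 3 of the reconstituted inhibitor and of the knockout control groups. The difference was -1.92 ± 0.47 log2 units for reconstituted minus knockout control tumours (adjusted p = 0.141), and 1.52 ± 0.46 for inhibitor minus control in reconstituted tumours (adjusted p = 0.0742). In knockout tumours the inhibitor difference was -0.96 ± 0.46 (adjusted p = 1; -0.43 without knockout control replicate 2), and the interaction of 2.47 ± 0.65 had an adjusted p of 0.144. None of these passed with all libraries. Without reconstituted inhibitor replicate 3, the inhibitor difference in reconstituted tumours was 1.55 (adjusted p = 0.0451) and the interaction 2.51 (adjusted p = 0.0321). In that fit 5683 and 4005 of all 17885 genes passed in these comparisons. Without replicate 1 of the same group the inhibitor difference of Arg1 was 1.14. Each of both Arg1 differences passed in 1 of the 12 fits with 1 library left out.

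Nos2, the inducible nitric oxide synthase, uses the same amino acid to make nitric oxide and marks classical activation. Reconstituted inhibitor tumours had 176, 61.7 and 182 CPM, against 31.2, 30.1 and 61.3 CPM in reconstituted control tumours. Knockout inhibitor tumours had 25.6, 62.9 and 51.7 CPM, against 75.0, 79.2 and 30.5 CPM in knockout control tumours. Replicates 1 and 3 of the reconstituted inhibitor group exceeded every other library, and replicate 2 was within the range of the other groups. Within reconstituted tumours the inhibitor difference was 1.78 ± 0.50 log2 units (adjusted p = 0.0729), or 3.43-fold. Under the inhibitor, reconstituted minus knockout gave 1.58 ± 0.50 (adjusted p = 0.136), and the interaction 2.18 ± 0.70 (adjusted p = 0.144). None passed with all libraries or in any of the 12 fits with 1 library left out.

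Most neutrophil markers had differences of the same sign as Arg1 and Nos2 in 3 of these comparisons. All 3 include the reconstituted control libraries, so their signs are not independent of each other. All 7 neutrophil markers tested were positive for the inhibitor in reconstituted tumours (median 0.62) and for the interaction (median 0.57), and 1 of 7 was positive for MAVS in control tumours (median -0.55), with none called. Of 25 macrophage and monocyte genes, 22 were positive for the inhibitor in reconstituted tumours, 22 for the interaction and 9 for MAVS in control tumours. Of 17 other alternative activation genes these numbers were 14, 15 and 2, and of 11 classical activation genes 10, 7 and 6. None of these was called there. S100a8, a calcium-binding protein abundant in neutrophils, averaged 1.35 ± 0.794 CPM in reconstituted inhibitor, 0.432 ± 0.074 in reconstituted control, 1.08 ± 0.382 in knockout inhibitor and 1.33 ± 0.343 CPM in knockout control tumours (SD, n = 3 each). Its difference was 1.65 ± 0.45 for the inhibitor in reconstituted tumours (adjusted p = 0.0729), -1.62 ± 0.45 for MAVS in control tumours (adjusted p = 0.162) and 1.95 ± 0.62 for the interaction (adjusted p = 0.144). Of 8 T and NK cell markers, 7 were positive for the inhibitor in reconstituted tumours (median 1.26) with none called, and the smallest p was that of Cd3d, a chain of the T cell receptor complex (1.23 ± 0.25, adjusted p = 0.0729). The part of these cells in the Arg1 and Nos2 values was not tested.

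For each member, the 3 genes with the smallest SD of the log2 ratio over the 12 libraries were sought, however large that SD was. For Arg1 the SD was smallest with Bnip3 (0.302), Slc16a3 (0.408) and Mt1 (0.413), and for Nos2 Hk3 (0.402) and AA467197 (0.410) were among the 3 nearest. The log2 levels of Arg1 and Nos2 themselves had SDs of 0.891 and 0.928, and the median SD over all genes compared was 0.919 and 0.951. Of the 45 pairs among the 10 members, Csf1r and Cd68 kept the most constant ratio (SD 0.173) and Arg1 and Siglec1 the least constant (SD 1.08). Csf1r and Cd68 varied little themselves (SD 0.144 and 0.197), and 16.7% of all genes compared had a smaller SD of the ratio to Csf1r. Siglec1 was nearest to the complement gene C3 (0.197), followed by Il18r1 (0.214) and Mitd1 (0.242). Ms4a6c was nearest to Fyb (0.110), N4bp1 (0.131) and Sh3bp2 (0.133), and Mrc1 to Maf (0.111), Mmp19 (0.146) and Zcchc24 (0.166). Adgre1 was nearest to Ptger4 (0.105), Cd53 (0.112) and Wipf1 (0.116), and Cd68 to Laptm5 (0.0723), B4galt1 (0.0794) and Ctsb (0.0961). For Csf1r the nearest were Slc30a1 (0.0623), Tmem19 (0.0684) and Tnfaip8 (0.0715), and after C1qb, Psenen (0.0979) and Msrb1 (0.101) were nearest to C1qa. All genes of a library share its depth and its tissue piece, so these ratios describe the 12 libraries and were not tested.

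Spp1 had its lower levels in reconstituted tumours of either treatment, and the difference did not pass the test. It had 6127, 8072 and 7790 CPM in reconstituted inhibitor tumours, against 8427, 8908 and 10470 CPM in knockout inhibitor tumours. It had 7323, 9365 and 7996 CPM in reconstituted control tumours, against 9532, 9943 and 10650 CPM in knockout control tumours. Within each treatment, all 3 reconstituted libraries lay below all 3 knockout libraries. The difference was -0.34 ± 0.14 log2 units under the inhibitor (adjusted p = 0.211; -0.23 without reconstituted inhibitor replicate 1), -0.29 ± 0.14 in control tumours (adjusted p = 0.283) and -0.31 ± 0.10 averaged (adjusted p = 0.144). DESeq2 gave -0.32 for the average with an adjusted p of 0.0259, a call that edgeR did not make. Spp1 exons overlap the gene Gm42793 on the same strand, with 11.6% of its 50-base words found there too. The genes nearest in ratio were Peg13 (0.104), Slc5a3 (0.111) and Trp53inp2 (0.115).

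**Figure D2:**
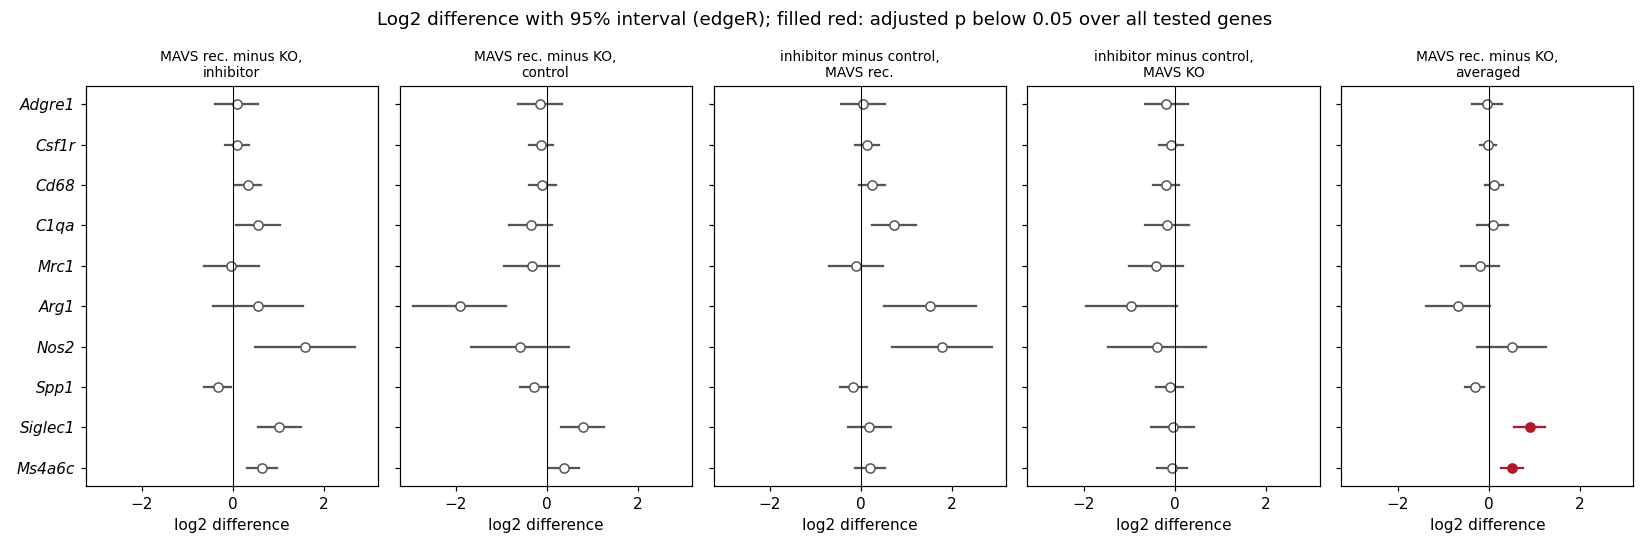
Log2 difference (x axis) of each gene (rows) with its 95% interval in 5 comparisons (panels); filled red points have an adjusted p below 0.05. Siglec1 and Ms4a6c pass in the averaged MAVS comparison at 0.90 and 0.51, and the widest intervals belong to Arg1 and Nos2.

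Over the 10 genes, the counts of calls were read against those over all 17885 genes. In the MAVS comparison averaged over treatments 2 of the 10 were called, both higher, where 1.56% of all genes were called (195 higher and 84 lower). None was called for MAVS under the inhibitor, where 0.649% of all genes were, or for MAVS in control tumours, where 0.14% were. None was called for the inhibitor in reconstituted tumours, the inhibitor in knockout tumours, the inhibitor averaged over genotypes or the interaction, and in each of these 4 comparisons 0% of all genes were. At an unadjusted p below 0.05, edgeR placed 6 of the 10 in MAVS under the inhibitor (19.7% of all genes), 3 in MAVS in control tumours (18.7%), 3 in the inhibitor effect in reconstituted tumours (32.6%), 4 in the interaction (24.7%), and 0 in the inhibitor effect in knockout tumours (1.71%) or averaged (7.82%). In MAVS averaged over treatments it placed 3 of the 10 (15.1%). DESeq2 called 2 of the 10 for MAVS under the inhibitor (Siglec1 and Ms4a6c) and 2 for MAVS in control tumours (Siglec1 and Arg1). Of all 17885 genes it called 1243 and 827 there. It called 3 of the 10 for the inhibitor in reconstituted tumours (C1qa, Arg1 and Nos2) and 2 for the interaction (C1qa and Arg1). Of all 17885 genes it called 3668 and 1365 there. Of the 10, DESeq2 called 0 for the inhibitor in knockout tumours and 0 averaged, and limma-voom called 0 in all 6 comparisons other than MAVS averaged over treatments. In that comparison DESeq2 called 3 of the 10 and limma-voom 2, against 1020 and 258 of all genes.

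Whether 3 libraries all lay on 1 side of the other 3 was counted too. This was so for 4 of the 10 genes in MAVS under the inhibitor (Cd68, Siglec1, Ms4a6c and Spp1), against 20.7% of all genes. It was so for 3 in MAVS in control tumours (Siglec1, Spp1 and Arg1), against 31.1%, a share close to that of all genes. For the inhibitor in reconstituted tumours it was 4 (Cd68, C1qa, Arg1 and Nos2), against 29.5%, and for the inhibitor in knockout tumours 0, against 8.73%. The median log2 difference of the 10 was 0.44 for MAVS under the inhibitor and -0.22 for MAVS in control tumours, against 0.01 and 0.00 over all genes. It was 0.18 for the inhibitor in reconstituted tumours and -0.19 in knockout tumours, against -0.01 and 0.00. These comparisons share groups of libraries and are not independent of each other.

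A member was also set against 4 macrophage identity genes in each piece, as its log2 ratio to the mean of Adgre1, Csf1r, Cd68 and C1qa. That mean was 7.21 ± 0.0488 log2 CPM in reconstituted inhibitor, 6.94 ± 0.209 in reconstituted control, 6.96 ± 0.205 in knockout inhibitor and 7.13 ± 0.118 in knockout control tumours (SD, n = 3 each). The 4 genes did not move together in every library. In reconstituted inhibitor replicate 1, Adgre1 had its lowest level of the 12 libraries (42.2 CPM) and C1qa its highest (689 CPM). Whether their mean follows the amount of macrophage RNA was not tested. Against that mean, Siglec1 was higher in reconstituted tumours by 0.72 under the inhibitor and 0.96 in control tumours, where its SD within groups was 0.35. Ms4a6c was higher by 0.38 and 0.55, with an SD of 0.113. For both genes all 6 reconstituted libraries lay above all 6 knockout libraries: the lowest reconstituted and the highest knockout values were -1.59 and -1.66 for Siglec1, and -0.53 and -0.71 for Ms4a6c. With the 25 lineage genes in place of the 4, the difference under the inhibitor was 0.55 for Siglec1 and 0.20 for Ms4a6c.

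Spp1, Arg1 and Nos2 had other values on this scale. Spp1 differed by -0.59 between reconstituted and knockout inhibitor tumours and by -0.45 between reconstituted inhibitor and reconstituted control tumours, without overlap in either case. Arg1 differed by 1.15 between reconstituted inhibitor and reconstituted control tumours and by -1.57 between reconstituted and knockout control tumours, again without overlap. Nos2 differed by 1.41 and 1.26 between reconstituted inhibitor tumours and the reconstituted control and knockout inhibitor groups, with overlap in both. Csf1r and C1qa were set against the others of Adgre1, Csf1r, Cd68 and C1qa. Csf1r differed by -0.21 between reconstituted and knockout inhibitor tumours and by -0.17 between reconstituted inhibitor and reconstituted control tumours. C1qa differed by 0.55 between reconstituted inhibitor and reconstituted control tumours, and none of these overlapped. The C1qa separation was narrow: replicates 1, 2 and 3 of the reconstituted inhibitor group had 2.97, 2.11 and 1.91, against at most 1.88 in reconstituted control tumours. How many of all genes separate on this scale was not counted. The ratios are descriptions, since C1qa, part of most denominators, itself varied between groups.

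**Figure D3:**
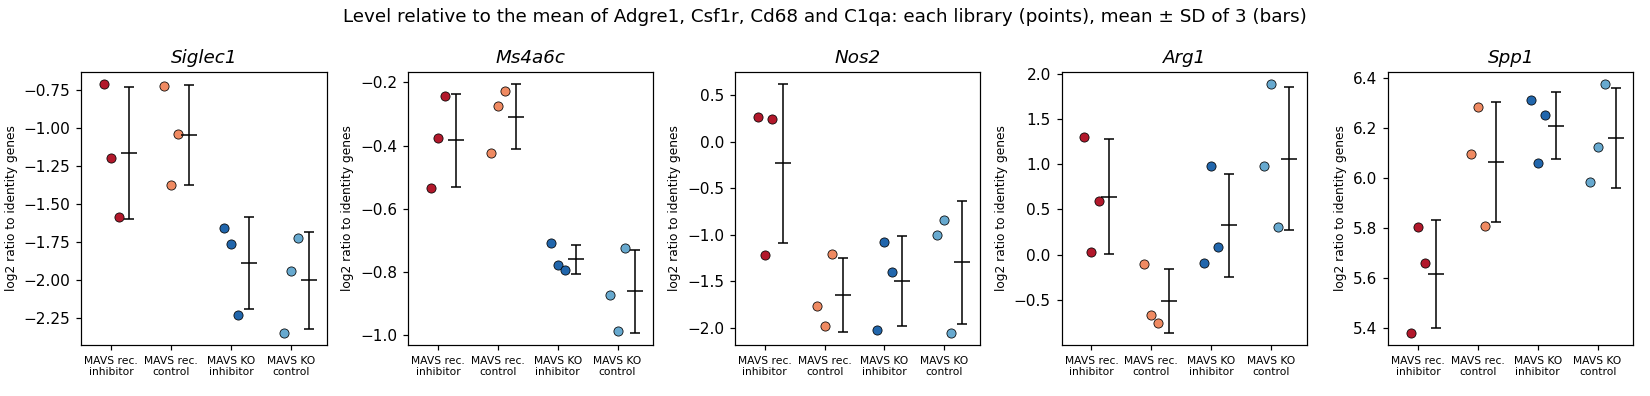
Log2 ratio of 5 genes to the mean of Adgre1, Csf1r, Cd68 and C1qa (y axis) by group (x axis); points are libraries and bars the mean ± SD of 3. The 6 reconstituted libraries lie above the 6 knockout libraries for Siglec1 and for Ms4a6c, and the reconstituted inhibitor libraries are the 3 lowest for Spp1.

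Other genes of macrophages and of their activation were taken as lists. Of 25 macrophage and monocyte genes none was called in any of the 7 comparisons. Their median was 0.47 for MAVS under the inhibitor and -0.22 for MAVS in control tumours, close to the 0.44 and -0.22 of the 10 members, and 0.11 averaged. For the inhibitor in reconstituted tumours it was 0.45, with 22 of 25 positive, against 0.18 for the 10 members. For the interaction it was 0.58 against 0.28. The gene of that list with the smallest p was Ly6c2, a surface antigen of inflammatory monocytes, at 0.87 ± 0.22 averaged over treatments (adjusted p = 0.0766) and 1.45 ± 0.31 under the inhibitor (adjusted p = 0.0649). It had 90.7, 112 and 78.9 CPM in reconstituted inhibitor tumours, against 23.8, 35.8 and 43.3 CPM in knockout inhibitor tumours, without overlap. In control tumours its MAVS difference was 0.30 (adjusted p = 0.63), and -0.04 to 0.60 with 1 library left out.

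Of 17 alternative activation genes other than the members, 1 was called, lower: Mgl2, a lectin of alternatively activated macrophages and dermal dendritic cells, at -0.57 ± 0.12 averaged over treatments (adjusted p = 0.0338). Mgl2 had 69.94, 60.03 and 57.58 CPM in reconstituted inhibitor tumours, against 58.5, 80.8 and 86.8 CPM in knockout inhibitor tumours, with overlap. In control tumours it had 48.3, 56.5 and 66.1 CPM in reconstituted libraries, against 98.9, 120 and 94.6 CPM in knockout libraries, without overlap. It passed in 4 of 12 fits with 1 library left out. The median of the list was -0.25 averaged, 0.22 under the inhibitor and -0.60 in control tumours.

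Of 11 classical activation genes none was called, with medians of 0.40 averaged, 0.31 under the inhibitor and 0.11 in control tumours. None was called among 11 genes of lipid-handling tumour macrophages (median -0.22 averaged), 7 integrin and CD44 receptors of osteopontin (-0.15), 8 genes of arginine metabolism (-0.10), 5 genes of the colony-stimulating factor axis (0.09) or 8 other Siglec genes (0.05). Each of these medians stands against 0.00 over all genes.

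Interferon-stimulated genes passed in numbers. Of 20, 18 were higher in reconstituted tumours averaged over treatments (median 2.06), 15 under the inhibitor (median 2.62) and 3 in control tumours (median 1.71). The 3 in control tumours were Ifit1, a sensor of viral RNA caps (3.10 ± 0.50, adjusted p = 0.0482), and the oligoadenylate synthetases Oas1a (2.39 ± 0.38, adjusted p = 0.0466) and Oas2 (2.12 ± 0.32, adjusted p = 0.0356). With 1 library left out, Ifit1 and Oas1a each passed there in 3 of 12 fits and Oas2 in 6. Their summed level was 1992 to 3783 CPM in reconstituted inhibitor, 946 to 2370 CPM in reconstituted control, 405 to 802 CPM in knockout inhibitor and 357 to 910 CPM in knockout control tumours. The Siglec1 and Ms4a6c differences of 0.90 and 0.51 were below that list's lowest value of 1.23 in the averaged comparison.

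**Figure D4:**
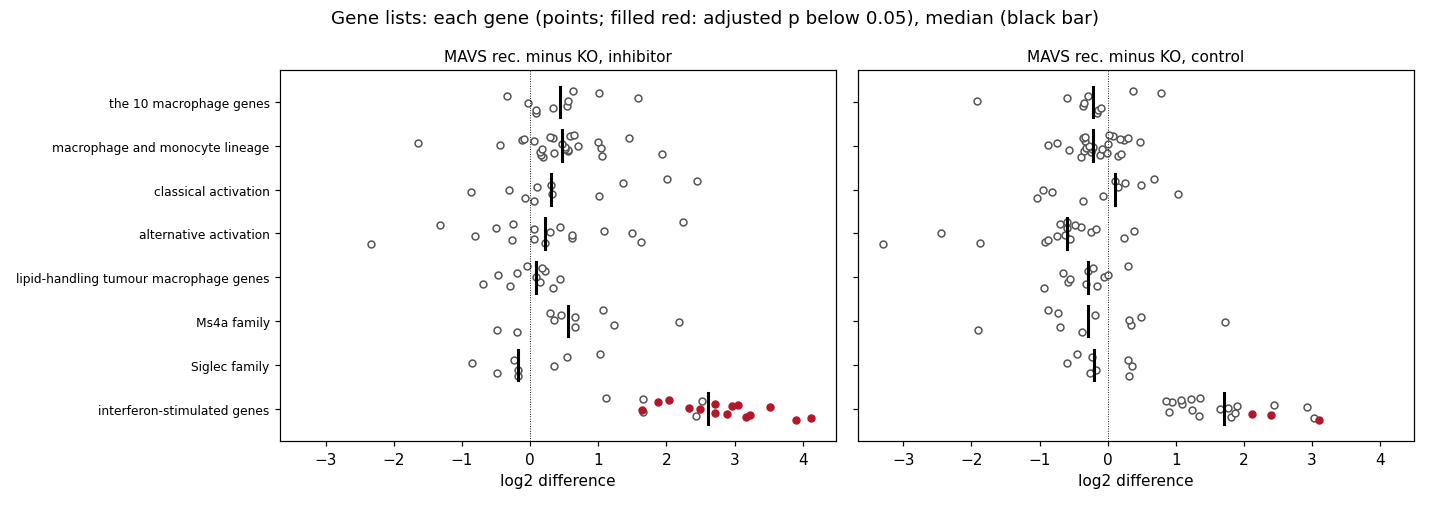
Log2 difference (x axis) of reconstituted minus knockout tumours for the genes of 8 lists (rows), under the inhibitor (left) and in control tumours (right); filled red points have an adjusted p below 0.05 and black bars are medians. The medians of the 10 macrophage genes are 0.44 and -0.22, and those of the interferon-stimulated genes 2.62 and 1.71.

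Markers of other cells are given as measured. Of 7 epithelial markers, 2 were lower in reconstituted tumours averaged over treatments, Epcam at -0.35 ± 0.07 (adjusted p = 0.0310) and Cldn4 at -0.57 ± 0.11 (adjusted p = 0.0285), passing in 5 and 6 of the 12 fits with 1 library left out. The median of the 7 was -0.06, and 2 were positive, Krt19 at 0.11 and Muc1 at 0.84 (adjusted p = 0.775 and 0.0797), both named after their values were seen. Of 8 T and NK cell markers none was called. Their median was 0.87 averaged, their summed level was 22.8 to 26.9 CPM in reconstituted inhibitor, 9.58 to 18.6 CPM in reconstituted control, 9.06 to 13.1 CPM in knockout inhibitor and 7.56 to 13.3 CPM in knockout control tumours, and the smallest p in that comparison belonged to Ncr1 (1.70, adjusted p = 0.0535). None of 7 neutrophil markers was called, S100a8 having the smallest p in the averaged comparison (-0.65, adjusted p = 0.354), and their summed level was 50.9 to 64.5 CPM in reconstituted inhibitor, 45.5 to 49.0 CPM in reconstituted control, 46.5 to 59.5 CPM in knockout inhibitor and 42.4 to 63.4 CPM in knockout control tumours. Fibroblast and pericyte markers had a median of -0.64 averaged with none of 8 called, and muscle markers 1.11 with none of 6 called. Only 1 of 3 B cell and 1 of 4 adipocyte markers had enough counts to be tested. None of the dendritic, endothelial, mast cell, B cell, red blood cell or adipocyte markers tested was called in any comparison. The part of these cells in the values of the members was not tested.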

How the data were processed

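RNA was sequenced from 12 tumour pieces as stranded libraries of polyadenylated RNA, per the labels' protocols. The authors deposited whole-number counts per gene and library, and the submitters' processing notes list Trimmomatic, HISAT2, StringTie and the build GRCm38 (mm10). No source used here gives versions, strand use or the treatment of reads shared between genes. If reads were counted without strand, antisense neighbours share counts.

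Groups came from the sample labels. These call the samples replicates without stating separate animals, so p-values measure only how these samples spread, which may be technical. No 2 libraries of a group agreed within sampling noise (chi-square per gene of at least 32.5). One edgeR 4.0.16 model (R 4.3.3) held all 12 libraries with a mean per group. It used filterByExpr (17885 genes kept) and TMM factors of 0.920 to 1.03, and 3 counts were worth 0.0422 to 0.0593 CPM. The quasi-likelihood F-test gave 7 comparisons with Benjamini-Hochberg adjustment over all genes, with calls made at adjusted p below 0.05. SE is the difference over the root of F. Ratios between genes used log2 of CPM plus 0.5. DESeq2 1.42.0, limma 3.58.1, other filters and scalings, a replicate block and leaving out libraries were alternatives, and the fit was tested on simulated data. Leaving out 2 libraries together, and the ratios without 1 library, were added after seeing the data.

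Exons, overlaps and transcript words came from GENCODE M21, promoters from RefSeq (GRCm38.p6). The members and lists were chosen with earlier results of these data known. All 10 members were named in each comparison, with up to 3 called genes of each other list, the gene with the smallest p of the lineage, T and NK and neutrophil lists, and the 3 genes nearest in ratio to each member. Of these, 1 gene, and the search for 1 further promoter motif, are not reported here.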

Additional observations from a re-analysis of the deposited data

How the results depend on the processing

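The 10 members called numbered 2 for the MAVS effect averaged over treatments, and this was 0 to 2 when each library in turn was left out and 1 without both knockout control replicate 2 and reconstituted inhibitor replicate 1. DESeq2 called 3 there. In the other comparisons none was called in the fit of all libraries. DESeq2 called 2 for MAVS under the inhibitor, 2 for MAVS in control tumours, 3 for the inhibitor in reconstituted tumours and 2 for the interaction. Leaving out single libraries gave 0 to 2 for MAVS under the inhibitor, 0 to 2 for the inhibitor in reconstituted tumours and 0 to 2 for the interaction, the value of 2 coming without reconstituted inhibitor replicate 3 in each. Counts over all genes moved as well. DESeq2 called 1020 against 279 for the averaged MAVS effect, 1243 against 116 for MAVS under the inhibitor, 827 against 25 for MAVS in control tumours, and 3668 and 1365 against 0 for the inhibitor in reconstituted tumours and the interaction. DESeq2 called 3 for the inhibitor in knockout tumours and 1 averaged over genotypes, against 0. With single libraries left out, the averaged MAVS effect had 115 to 331 genes called, the lowest without knockout inhibitor replicate 1 (168 or fewer also without knockout inhibitor replicates 2 or 3, knockout control replicate 2 or reconstituted control replicate 3). MAVS under the inhibitor had 0 (without knockout inhibitor replicate 3) to 2816 (without reconstituted inhibitor replicate 3) and MAVS in control tumours 0 (without knockout control replicate 2) to 80. Without reconstituted inhibitor replicate 3 the inhibitor effect in reconstituted tumours reached 5683 genes and the interaction 4005, with lowest values of 0. The inhibitor effect averaged over genotypes had 0 to 3 and that in knockout tumours 0 in every such fit. Fitting only the libraries compared called 64 genes for MAVS under the inhibitor, 10 for MAVS in control tumours and 1 for the inhibitor in reconstituted tumours. Limma-voom called 15 for MAVS in control tumours and 1 for the inhibitor in knockout tumours. The causes were not tested.

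Correlations between the deviations of same-numbered libraries ran from -0.241 to 0.463, and 9 of 18 were over 0.1. Differently numbered libraries were not correlated for reference, so these values do not decide whether same-numbered libraries pair. With the replicate block the averaged MAVS effect had 2 members called (Siglec1 0.89, adjusted p = 0.0415, and Ms4a6c 0.49, adjusted p = 0.0334) and 207 genes, and the block gave 43 genes for MAVS under the inhibitor and 15 for MAVS in control tumours. Ms4a4c, Mgl2, Epcam and Cldn4 lost their averaged calls under the block, with adjusted p of 0.0569, 0.0581, 0.0581 and 0.0623. Of 1370 member differences recomputed, 46 changed sign, all with a size of at most 0.265 in the fit of all libraries. Of 30 nearest genes, 28 stayed with a pseudocount of 0.1. All 10 members lie far above 3 counts in every library.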

Other observations

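Siglec1 lies 147284 bases from Mavs on chromosome 2 (131067801 to 131086778 and 131234063 to 131248025, GRCm38). Of the 8 genes annotated between them 7 were tested. In the averaged MAVS comparison edgeR called 0 of these, 1 had an unadjusted p below 0.05, DESeq2 called 1 and limma-voom 0. Cdc25b, a phosphatase of cell division, had the smallest adjusted p with edgeR, 0.0515, at 0.24 ± 0.05 on the log2 scale (SE), and was picked out after its values were seen. The log2 differences of the 7 ran from -0.17 to 0.48 with a median of -0.03, against 0.90 for Siglec1 and 0.58 for Mavs.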
